A study of Mus musculus with 4 samples.

Results

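The transcripts described here were lower in the lysate of proline-treated mouse hepatocytes and well measured with the RNA-binding protein NONO. The question was how far the RNA recovered with NONO followed the lower level in the lysate. A transcript was included where log2(FPKM + 1) in the proline lysate was lower than in the control lysate by at least 1, a 2-fold difference, and where its mean FPKM in the NONO immunoprecipitates (IPs) was at least 20. FPKM give a read number corrected for transcript length and library depth. Of the 21163 Ensembl transcripts listed, 2827 had a mean IP FPKM of at least 20, and 118 of these also met the condition on the lysate. A difference of this size between the lysates was found for 4.17% of the 2827 and for 3.19% of the 12168 transcripts that averaged 1 FPKM or more over the 4 libraries, and 270 of the latter stayed under the IP minimum.

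The cells were mouse primary hepatocytes, taken from liver and cultured with proline treatment or as a control. From each culture a sample of the lysate, the input, and a NONO IP were sequenced, so that each of the 4 groups (lysate and IP, each in control and proline) holds 1 library. There is no replicate of any group, so no test was run. Each comparison sets libraries side by side, and the intervals given are 95% intervals that cover counting error only. The labels give no genotype or age of the mice and neither dose nor duration of proline, and a mock IP was not analysed here.

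NONO is a nuclear RNA-binding protein that, with its partners SFPQ and PSPC1, assembles on the long non-coding RNA Neat1 into paraspeckles. These nuclear bodies hold back certain RNAs, so that a transcript can be present in the cell without reaching the ribosomes. The lysate samples RNA from the whole cell, whereas the IP samples RNA bound to NONO or co-purified with it. In a culture, fewer cells of a type and less RNA per cell cannot be told apart.

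The tables pair no transcript with a gene name, and the gene table at hand holds 0 Ensembl identifiers. The lists prepared for named genes (markers of hepatocytes and of other liver cells, paraspeckle components, gluconeogenesis, proline metabolism, amino acid stress targets and lipid synthesis) therefore could not be measured, and the cell type could not be checked. A few transcripts are given by identifier and the others by the length recovered from the FPKM steps, which differs from every other length among the 118 for 110 of them.

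The libraries differed widely in depth. The inputs held 22188003 reads in control and 20826758 in proline, and the IPs 1786928 and 954824. For the 118 transcripts the median read number was 4593 in the control lysate, 1359 in the proline lysate, 192 in the control IP and only 74.0 in the proline IP, so that the IP values carry most of the counting error. One transcript, 3894 nt long and not among the 118, took 8.19% of the control IP reads and 17.4% of the proline IP reads. With the libraries scaled to totals without it, the rule chose 140 transcripts, and their median IP difference was -0.45 in place of the -0.51 given below.

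The 118 transcripts were of moderate to high abundance in the control lysate, and the condition on the lysate set their drop. Their control lysate levels ran from 21.7 to 865 FPKM with a median of 73.9, and their proline lysate levels from 4.72 to 413 FPKM with a median of 27.9. The log2 difference between the inputs ran from -3.22 to -1.01, with a median of -1.24. In the IPs the range was from 19.2 to 467 FPKM in control, with a median of 37.3, and from 12.4 to 317 FPKM in proline, with a median of 26.8. The control IP alone reached 20 FPKM for 117 of the 118 and the proline IP alone for 85. The distributions of control and proline thus overlapped widely in both kinds of library.

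**Figure D1:**
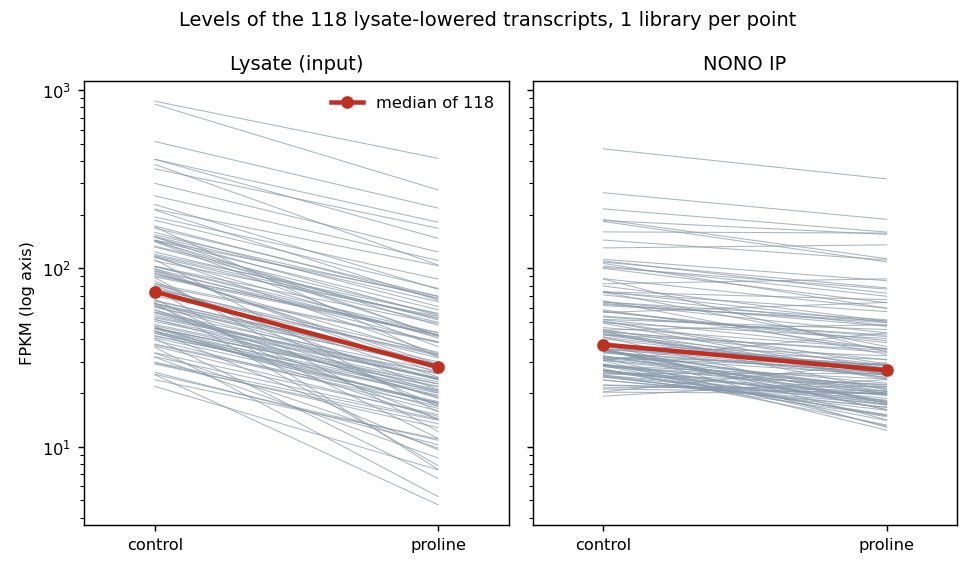
Levels of the 118 transcripts in FPKM on a log axis, with a thin line for each transcript from the control to the proline library, in the lysate (left) and in the NONO IP (right). The thick line joins the medians, 73.9 and 27.9 FPKM in the lysate and 37.3 and 26.8 FPKM in the IP.

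The NONO IP followed the lysate in direction for most of the 118 but in size for few. The proline IP was below the control IP for 109 of them (92.4%), against 60.7% of all 2827 transcripts with the same IP level and 62.8% of the 12168 that averaged 1 FPKM or more. Part of this was fixed by the rule, since the proline IP alone reached 20 FPKM for only 85 of the 118. The others met the IP minimum only through the control IP, so their proline IP had to be the lower one. With the minimum set on the proline IP, which favours a higher proline IP, it was 76 of 85 (89.4%), against 54.1% of 2711. The median log2 difference between the IPs was -0.51, with quartiles of -0.72 and -0.33. Over all 2827 it was -0.10, and over the 12168 it was -0.15. With each comparison centred on its median over the 12168, 103 of the 118 (87.3%) stayed below 0, against 44.3% of the 2827. As an FPKM ratio of proline over control, the median was 0.691 in the IP and 0.416 in the lysate. The rule set the size of the lysate drop, which by itself favours a smaller drop in the IP.

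A drop of 2-fold or more between the IPs was seen for 9 of the 118 (7.63%). The same call was made for 0.778% of the 2827 transcripts, which include the 118, and for 6.25% of the 12168, many of which rest on few IP reads. Of the 9, 7 were under 20 FPKM in the proline IP and met the IP minimum only through the control IP, and with the minimum set on the proline IP the count was 2 of 85 (2.35%). With libraries scaled to equal FPKM totals it was 17 of 136 (12.5%). None of the 118 showed a rise of 2-fold or more between the IPs, a call made for 0.99% of the 2827 and 2.96% of the 12168. By counting error alone, the interval of the IP ratio lay below 1 for 77 of the 118 (65.3%, against 23.1% of the 2827 and 14.2% of the 12168) and above 1 for 0 (against 11.9% and 5.8%). For the other 41 the IPs could not be told apart at this depth. Members under 20 FPKM in the proline IP, some of them among the 77, met the IP minimum only through the control IP. Their proline IP was the lower one by the rule, so these shares are in part set by it.

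Summed over the 118, their reads made up 4.66% of the control lysate and 1.86% of the proline lysate, a ratio of 0.399 (0.397 to 0.400). In the IPs they made up 2.38% in control and 1.69% in proline, a ratio of 0.710 (0.697 to 0.722). These transcripts therefore lost a smaller part of their share in the IP than in the lysate. The sum rests largely on the most abundant transcripts, and the loss in the lysate is set by the choice of the members.

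Ranks do not depend on how the libraries are scaled. Among the 2827 transcripts, with rank 1 the highest, the median rank of the 118 was 851 in the control lysate and 2073 in the proline lysate. In the IPs it was 1368 in control and 1932 in proline. The choice of members fixed the fall of their rank in the lysate, so only the ranks in the IPs are independent of it, apart from the minimum on the mean IP level.

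**Figure D2:**
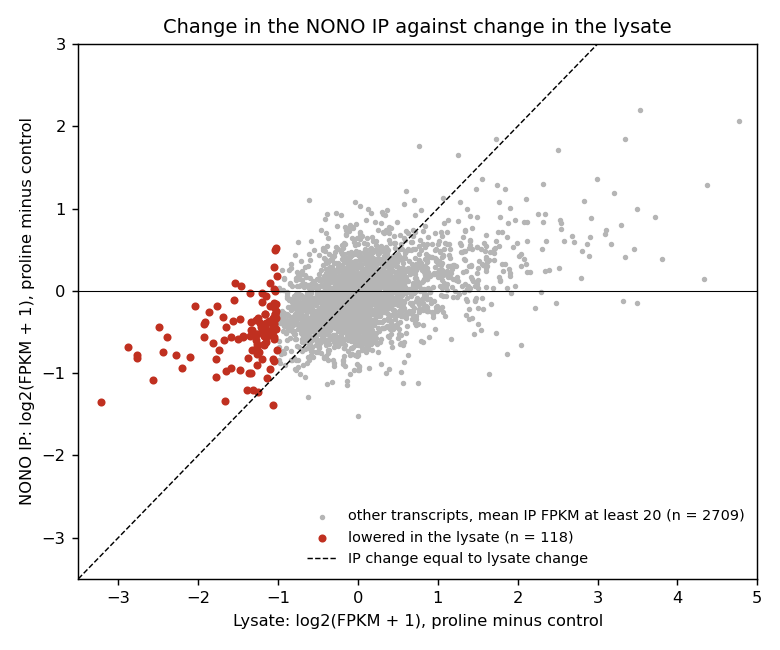
Difference between the proline and control IPs (vertical) against the difference between the proline and control lysates (horizontal), both on log2(FPKM + 1), for the 118 transcripts (red) and the other 2709 with a mean IP FPKM of at least 20 (grey). Nearly all red points lie below 0 and above the dashed line of equal change, with 109 of 118 below 0 and 1 below the dashed line.

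The part of the lysate difference that was seen in the IP was measured for each transcript as the log2 IP difference in percent of the log2 input difference. Its median was 36.6%, with quartiles of 23.7% and 50.8%. It was between 0 and 25% for 24 transcripts, between 25% and 50% for 55, between 50% and 75% for 21 and between 75% and 100% for 8. For 1 transcript the IP difference exceeded the lysate difference, and for 9 the proline IP was above the control IP. Because the members were picked on a large input difference, which is the denominator, the choice by itself favours low percentages.

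The 10 transcripts with the largest drop in the lysate were also lower in the proline IP, each by less than in the lysate. They were picked on the lysate drop, which by itself favours a smaller drop in the IP, and counting intervals do not cover this. ENSMUST00000026475 and the transcripts of 3196, 9223 and 650 nt were also under 20 FPKM in the proline IP. These met the IP minimum only through the control IP, so a lower proline IP was fixed for them by the rule. ENSMUST00000026475, 445 nt long, was at 77.8 FPKM in the control lysate and 7.45 FPKM in the proline lysate, and at 37.7 FPKM in the control IP and 14.1 FPKM in the proline IP. Its ratio of proline over control was 0.0957 (0.0737 to 0.123) in the lysate and 0.374 (0.127 to 0.914) in the IP, the latter on 30 and 6 reads. It was thus lower in both fractions, with an IP value too thinly read to say by how much.

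A better measured example is the transcript of 9223 nt, with 574 control IP reads and 175 proline IP reads. It stood at 88.6 FPKM in the control lysate, 12.2 FPKM in the proline lysate, 34.8 FPKM in the control IP and 19.9 FPKM in the proline IP. Its ratio was 0.137 (0.131 to 0.143) in the lysate and 0.571 (0.479 to 0.677) in the IP, and these intervals lie far apart. It met the IP minimum only through the control IP, so the rule fixed the direction of its IP difference, though not the size.

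The transcript of 3196 nt went from 64.0 to 7.83 FPKM between the inputs and from 32.2 to 19.7 FPKM between the IPs. It had the largest change in enrichment of the 118: the ratio of IP to input was 4.99 times higher in proline than in control (3.70 to 6.80). The transcript of 2026 nt that was at 112 FPKM in the control lysate went to 15.6 FPKM in the proline lysate, and from 45.3 to 25.3 FPKM between the IPs. Both were more abundant in the lysate than in the IP in control, and less abundant in the lysate than in the IP in proline.

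Among the rest of the 10 with the largest drop, the transcript of 650 nt went from 36.1 to 5.25 FPKM in the lysate and from 35.3 to 16.1 FPKM in the IP. The transcript of 2170 nt went from 67.1 to 11.1 FPKM in the lysate and from 31.2 to 22.7 FPKM in the IP, an IP ratio of 0.727 whose interval reaches past 1 (0.508 to 1.03). It is the only one of the 10 for which the IPs could not be told apart by counting. The transcript of 2107 nt went from 40.5 to 6.63 FPKM in the lysate and from 34.8 to 20.4 FPKM in the IP.

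The transcript of 1488 nt was the most abundant of these 10, at 170 FPKM in the control lysate and 31.7 FPKM in the proline lysate, with 103 FPKM in the control IP and 69.7 FPKM in the proline IP. The transcript of 1837 nt went from 84.9 to 16.8 FPKM in the lysate and from 50.6 to 29.1 FPKM in the IP. The last of the 10, a transcript of 2208 nt at 25.3 FPKM in the control lysate and 4.72 FPKM in the proline lysate, differed from the others in lying above its input already in control, with 49.2 FPKM in the control IP and 25.1 FPKM in the proline IP.

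**Figure D3:**
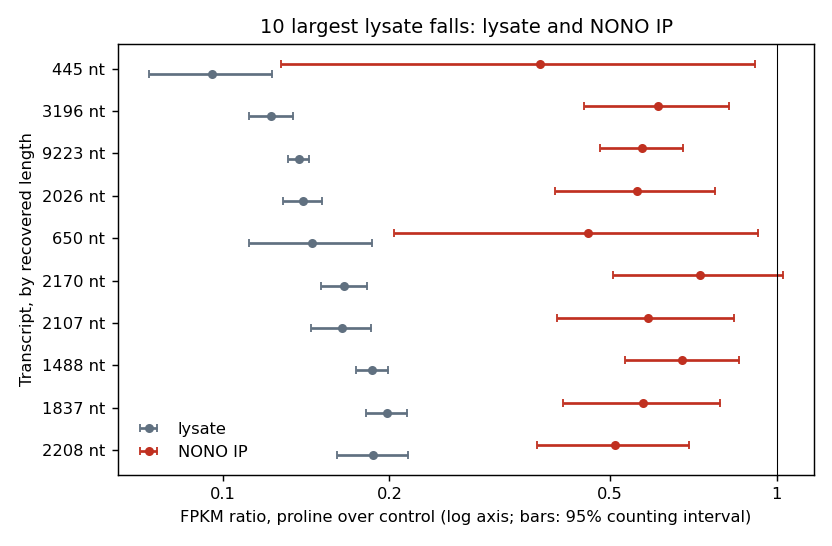
FPKM ratio of proline over control on a log axis for the 10 transcripts with the largest drop in the lysate, named by recovered length, in the lysate (grey) and in the NONO IP (red), with 95% counting intervals. The IP ratio lies nearer to 1 than the lysate ratio for all 10, from 0.374 to 0.727 against 0.0957 to 0.198, and the intervals of lysate and IP do not overlap for any of them. The 10 were picked on the lysate drop, which by itself favours IP ratios nearer to 1.

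The members most abundant with NONO were read deeply enough for narrow intervals. ENSMUST00000102774, with 2037 nt, was at 832 FPKM in the control lysate, 275 FPKM in the proline lysate, 467 FPKM in the control IP and 317 FPKM in the proline IP. Its ratio was 0.331 (0.324 to 0.338) in the lysate and 0.679 (0.618 to 0.745) in the IP. The transcript of 2817 nt was at 865 and 413 FPKM in the inputs and at 265 and 188 FPKM in the IPs, in the order control and proline. It was less abundant in the IP than in the lysate in both conditions, whereas ENSMUST00000102774 was so only in control.

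The longest of the 118, of 18100 nt, had the most IP reads, 6961 in control and 2758 in proline. It was at 408 and 181 FPKM in the inputs and at 215 and 160 FPKM in the IPs. Its IP ratio of 0.742 (0.709 to 0.775) and its lysate ratio of 0.444 (0.440 to 0.448) are the most closely bounded of the set, and the IP difference was 36.8% of the lysate difference, almost the median.

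Similar abundance in the IP did not mean an equal response. The transcript of 4754 nt was at 255 and 111 FPKM in the inputs but at 160 and 158 FPKM in the IPs, an IP ratio of 0.985 (0.898 to 1.08) on 1359 and 715 reads. The transcript of 3049 nt was at 514 and 218 FPKM in the inputs and at 183 and 109 FPKM in the IPs, an IP ratio of 0.593 (0.521 to 0.674). These intervals do not overlap, although the lysate ratios were nearly the same at 0.434 and 0.423.

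The transcript of 2319 nt went from 382 to 104 FPKM in the lysate and from 185 to 155 FPKM in the IP. The transcript of 1626 nt went from 408 to 147 FPKM in the lysate and stood at 130 and 135 FPKM in the IPs. Both thus had a large drop in the lysate and little or no drop in the IP, with IP ratios of 0.836 (0.734 to 0.951) and 1.04 (0.874 to 1.23).

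The other 3 of the 10 most abundant with NONO had IP differences of -0.72, -0.37 and -0.39, around the median of -0.51. The transcript of 2813 nt was at 142 and 41.9 FPKM in the inputs and at 187 and 113 FPKM in the IPs, so that it was above its input in both conditions. The transcript of 1816 nt with 228 FPKM in the control lysate had 76.3 FPKM in the proline lysate and 144 and 111 FPKM in the IPs. The transcript of 2951 nt was at 194 and 86.9 FPKM in the inputs and at 112 and 85.2 FPKM in the IPs.

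The next transcripts were picked for the lowest IP differences, not for how closely they followed the lysate. The transcript of 1144 nt was the only one with a larger drop in the IP than in the lysate, at 70.1 and 33.0 FPKM in the inputs and 35.2 and 12.8 FPKM in the IPs, but its IP ratio of 0.364 (0.190 to 0.651) rests on 72 and 14 reads. The transcript of 1853 nt was at 212 and 66.2 FPKM in the inputs and at 87.0 and 33.9 FPKM in the IPs, with ratios of 0.312 (0.299 to 0.327) in the lysate and 0.390 (0.290 to 0.517) in the IP.

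The transcript of 3475 nt was at 36.6 and 14.8 FPKM in the inputs and at 30.3 and 12.4 FPKM in the IPs, with a ratio of 0.404 in the lysate and 0.408 in the IP. The transcript of 2414 nt was at 44.4 and 17.2 FPKM in the inputs and at 31.3 and 13.0 FPKM in the IPs. Together with ENSMUST00000026475, these 4 had the lowest IP differences of the 118. Apart from ENSMUST00000026475, their IP to input ratios in control and in proline could not be told apart by counting. All of these except the transcript of 1853 nt were under 20 FPKM in the proline IP. They met the IP minimum only through the control IP.

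At the other end, 9 transcripts (7.63%) were lower in the proline lysate and yet had a proline IP above the control IP. A proline IP above the control IP was found for 39.3% of the 2827 and 37.1% of the 12168, whatever their lysate difference. ENSMUST00000102738, 1629 nt long, was at 41.7 and 19.95 FPKM in the inputs and at 20.3 and 29.6 FPKM in the IPs, an IP ratio of 1.46 (0.970 to 2.18). ENSMUST00000168578, of 1375 nt, was at 23.7 and 11.0 FPKM in the inputs and at 30.5 and 43.4 FPKM in the IPs, an IP ratio of 1.42 (0.990 to 2.03). The interval of the IP ratio includes 1 for each of the 9, so that a rise in the IP was not detectable at this depth for any of them.

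The next of these 9 were a transcript of 1634 nt, with 37.6 and 17.7 FPKM in the inputs and 19.2 and 23.7 FPKM in the IPs, and one of 1139 nt, with 110 and 53.8 FPKM in the inputs and 56.5 and 64.4 FPKM in the IPs. The one of 1634 nt met the IP minimum only through the proline IP, so the rule fixed its proline IP as the higher one. The transcript of 3842 nt had the lowest IP level for its lysate level of the 118, with 361 and 168 FPKM in the inputs and 45.0 and 48.2 FPKM in the IPs. The remaining 4 had IP ratios between 1.002 and 1.07.

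The spread of the IP response among the 118 was only partly counting error. The SD of the log2 IP ratio was 0.37 across the 118, and the counting error of a single transcript was 0.23 on the same scale (root mean square), which corresponds to 39.5% of the variance. In the inputs the counting error was 0.056. A spread between cultures cannot be separated from a spread between transcripts with 1 library a group.

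The IP difference changed less across the members than the lysate difference did. For the 12 transcripts with an input difference of -2 or lower, the median was -2.47 in the lysate and -0.78 in the IP, and all 12 were below 0 in the IP. Of these 12, the transcripts of 445, 3196, 9223, 650 and 1887 nt met the IP minimum only through the control IP. Their IP difference was therefore below 0 by the rule. For the 19 between -2 and -1.5 the medians were -1.68 and -0.56. For the 87 between -1.5 and -1 they were -1.15 and -0.48, and within these the 28 with the larger lysate drops (median -1.33) had a median of -0.59 in the IP, lower than the class before, and the other 59 one of -0.41. The slope of the IP difference on the input difference was 0.27 within the 118 and 0.28 over all 2827 transcripts, with Pearson correlations of 0.35 and 0.52 across transcripts. These are descriptions across transcripts that share the same 4 libraries.

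The same gradient ran on without a step above the limit of the rule. The 407 transcripts with an input difference between -1 and -0.5 had a median of -0.66 in the lysate and -0.31 in the IP. The 243 transcripts at least 2-fold higher in the proline lysate, at the same IP minimum, had a median of 1.49 in the lysate and 0.33 in the IP, which was 21.9% of the lysate difference in the median transcript, against 36.6% for the 118. Whether the IP followed drops and rises to a different extent was not tested. The median of all 2827 in the IP, -0.10, is below 0, which adds to drops and takes from rises.

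**Figure D4:**
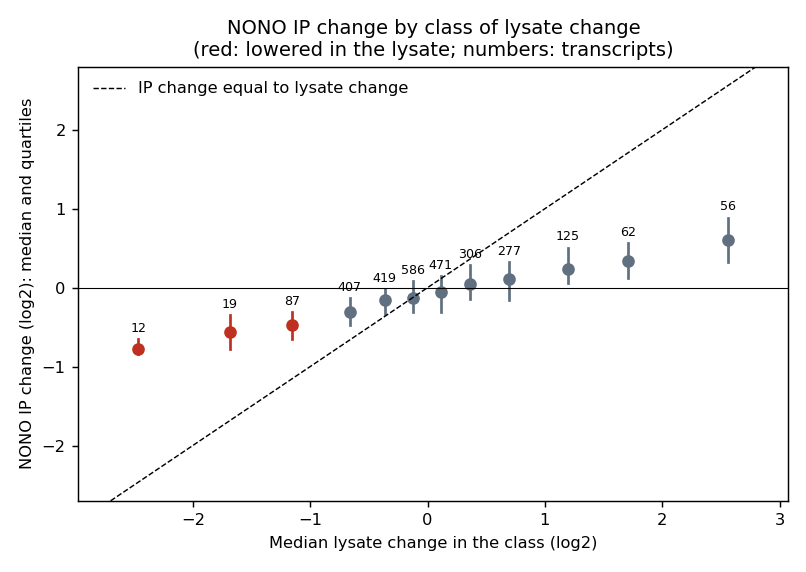
NONO IP difference (median as point, quartiles as bar) by class of lysate difference for the 2827 transcripts with a mean IP FPKM of at least 20, both on log2(FPKM + 1). Red classes hold the 118 transcripts (12, 19 and 87), numbers above the bars count transcripts, and the medians rise from -0.78 to 0.61 across lysate classes whose medians run from -2.47 to 2.56.

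By abundance and by length, the classes of members had IP differences as follows. The median IP difference was -0.53 for the 35 transcripts under 50 FPKM in the control lysate and -0.53 for the 43 between 50 and 100. It was -0.46 for the 28 between 100 and 200 FPKM and -0.40 for the 12 above that. By length it was -0.58 for the 6 under 1000 nt, -0.54 for the 37 of 1000 to 2000 nt, -0.48 for the 48 of 2000 to 4000 nt and -0.52 for the 27 longer ones. The drop in the IP was smaller in the more abundant classes, some of them small, and showed no steady order with length; these differences were not tested. The median length of the 118, 2245 nt, was close to the 2292 nt of all 2827. The 37 transcripts with at least 400 IP reads in the pair of IPs had a median IP difference of -0.53 and the 9 with under 100 reads one of -0.44, but 0 of the 37 and 3 of the 9 were at least 2-fold lower.

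Relative to their own lysate, the 118 were low in the control IP and level with it in the proline IP. The median log2 difference of IP over input was -0.89 in control and 0.0077 in proline, where all 2827 transcripts had medians of -0.27 and -0.31. In control 45 of the 118 were at least 2-fold below their input (38.1%, against 17.2% of the 2827 and 14.6% of the 12168) and 1 at least 2-fold above it (0.847%, against 13.0% and 13.4%). In proline 8 were at least 2-fold below (6.78%, against 17.2% and 19.5%) and 12 at least 2-fold above (10.2%, against 8.81% and 8.88%). The rule used the inputs that are the denominators here, so nothing is read from these shares.

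The single member at least 2-fold above its input in control, of 1822 nt, was at 21.7 FPKM in the control lysate and 71.0 FPKM in the control IP, and at 7.41 and 47.7 FPKM in proline. It lay above its input in both conditions. With both counting intervals excluding a ratio of 1, 23 of the 118 were below their input in control and above it in proline (19.5%, against 1.63% of the 2827 and 0.567% of the 12168), and 0 were the other way round (against 4.03% and 2.42%).

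Enrichment with NONO, the IP to input ratio, was at least 2-fold higher in proline for 39 of the 118 (33.1%, against 2.26% of the 2827 and 4.17% of the 12168) and at least 2-fold lower for 0 (against 7.5% and 13.8%). The median log2 change was 0.78, a median ratio of 1.73. The interval of this change lay above 1 for 100 of the 118 (against 19.9% and 10.6%). The drop in the lysate that enters this change was fixed by the rule, so the shares describe the members and support nothing.

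**Figure D5:**
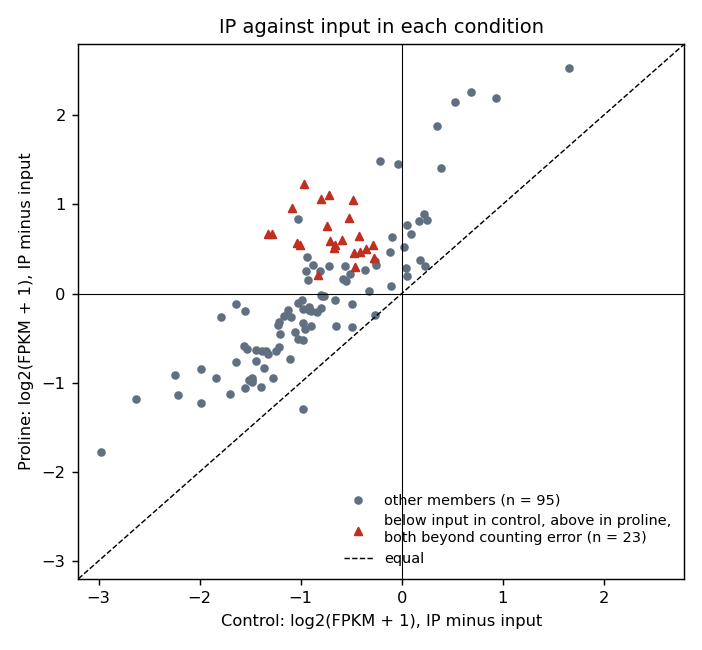
Log2 difference of NONO IP over input in proline (vertical) against control (horizontal) for the 118 transcripts. Points lie above the dashed line of equality for all but 1, and triangles mark the 23 whose IP lay below the input in control and above it in proline with both counting intervals excluding a ratio of 1.

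The levels in the proline IP ranked with the control lysate about as well as with the proline lysate. Across the 118, the Spearman correlation of the proline IP was 0.61 with the control lysate and 0.62 with the proline lysate, and that of the control IP was 0.61 with the control lysate and 0.54 with the proline lysate. The IPs correlated with each other at 0.84 and the inputs at 0.89. Over the 2827 transcripts the proline IP correlated at 0.56 with the control lysate and at 0.68 with the proline lysate. Points within a library share its depth, and the choice of members on the inputs narrows the range of the differences.

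The values on each side of the limits of the rule were as follows. The 3 just inside the lysate limit (2232, 1139 and 790 nt) had input differences of -1.02, -1.02 and -1.01 and IP differences of -0.16, 0.18 and -0.72. The 3 just outside (2567, 2366 and 1947 nt) had -0.9976, -0.99 and -0.99 in the inputs and -0.25, -0.27 and -0.35 in the IPs. The 3 just inside the IP limit (2854, 3450 and 8821 nt) had a mean IP level between 20.01 and 20.1 FPKM and IP differences of -0.026, -0.72 and -0.48. The 3 just outside (3700, 3682 and 1984 nt) lay between 19.8 and 19.97 FPKM, with IP differences of -0.99, -0.68 and -1.20.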

How the data were processed

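RNA immunoprecipitation sequencing was deposited as 1 table per library, in which the authors give FPKM for 21163 Ensembl transcripts. The submitters' processing notes name GRCm38 and mm10. The labels do not state the annotation release, the aligner, the counter or whether reads or read pairs were counted. The counted unit is called a read. The members, lists and limits were chosen with earlier results of these data known.

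Differences were taken on log2(FPKM + 1) with Python 3.11.15 (pandas 2.3.3, numpy 2.4.6, scipy 1.17.1). A pseudocount of 1 understates the change of low transcripts, and a difference of 1 was called. Background shares are over the 12168 transcripts averaging 1 FPKM or more over the 4 libraries, or the 2827 with an IP average of 20 or more.

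In each library the deposited FPKM rise in steps of 1 read, whose size depends on the transcript's length and the library's total. The totals and the smallest whole lengths and reads giving the deposited values were recovered for 20230 of 20230 transcripts above 0. On simulated libraries 4 of 4 totals and 94.7% of 19603 transcripts were recovered exactly. The simulation used the recovered lengths and printed abundant values with more digits than the deposited ones, so this share may be too high. A common factor can make length and reads too small. Intervals of ratios are exact (Clopper-Pearson) from these reads, at 95%; for the change in enrichment they are a normal approximation with 0.5 added to each read number. They leave out PCR copies and variation between cultures. No count model was fitted.

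Transcripts described singly are the 10 with the largest input drop, the 10 with the highest mean IP level, the 5 lowest and 5 highest IP differences and the 3 on each side of both limits. The 1822-nt transcript was added after its values were seen. Alternatives covered pseudocount, scaling, IP minimum and input limit.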

Additional observations from a re-analysis of the deposited data

Results flagged for a closer look

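Of the 118 transcripts, 23 lay below their input in the control IP and above it in the proline IP, with both counting intervals excluding a ratio of 1. They came to attention because the IP lay on opposite sides of the input in the 2 conditions, which does not mean that the IP rose. The same was found for 46 of all 2827 transcripts with a mean IP FPKM of at least 20 (1.63%) and for 69 of the 12168 averaging 1 FPKM or more (0.567%); the reverse was found for 0 of the 118. The difference between conditions was not tested, with 1 library a group, and the lower proline input that enters it was fixed by the choice of members.

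The opposite direction of lysate and IP drew attention to 9 transcripts that were lower in the proline input and higher in the proline IP on log2(FPKM + 1). The proline IP was the higher one for 39.3% of the 2827 and 37.1% of the 12168. Their IP ratios ran from 1.002 to 1.46, and the counting interval included 1 for each of the 9. The difference between lysate and IP was not tested.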

How the results depend on the processing

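The median IP difference over the chosen transcripts was below 0 and the median change in enrichment above 0 under all 12 alternatives. No paired analysis was possible because each group has 1 library, and leaving out a replicate was not possible either. Against 118 transcripts chosen, there were 223 at a mean IP FPKM of at least 10, 31 at 50 and 388 with a mean FPKM of at least 1 and no IP minimum, and 31 at an input limit of -1.5 and 205 at -0.8. Against 9 at least 2-fold lower in the IP, there were 22, 1 and 54 under those IP minimums, 4 at the limit of -1.5, 5 with a pseudocount of 5, 17 with equal FPKM totals and 2 with the minimum set on the proline IP. Against 39 with at least 2-fold higher enrichment there were 69, 11 and 132 under those IP minimums. The median IP difference, -0.51 as reported, moved to -0.57 with equal totals, -0.37 with each comparison centred on its median, -0.41 with the minimum on the proline IP, -0.63 at the limit of -1.5 and -0.42 at -0.8. The median change in enrichment, 0.78 as reported, moved to 0.73 with equal totals, 0.94 when centred, 1.44 at the limit of -1.5 and 0.68 at -0.8. The IP minimum and the input limit change the number of transcripts counted by construction; the cause of the other moves was not tested. The share of the chosen transcripts with a 2-fold drop in the IP ran from 2.35% to 13.9%, against 7.63% as reported. The 13.9% was found without an IP minimum, where the same call was made for 6.25% of the 12168. The 7.63% stands beside 0.778% of the 2827. Shares over all transcripts at the other settings are not given for this call or for enrichment, so those counts describe the chosen transcripts only. Relative to all transcripts with the same IP level, the median IP difference was -0.41 as reported and with equal totals. Centring moves both medians by the same amount and cannot change this value, and scaling to equal totals moves both nearly alike. It was -0.37 with the minimum on the proline IP, -0.53 at the limit of -1.5 and -0.31 at -0.8. Depth limits the IP values, with a median of 74.0 reads in the proline IP, and counting error made up 39.5% of the variance of their log2 IP ratio.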
